A study of Mus musculus with 12 samples.

Results

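The miR-23, miR-27 and miR-24 microRNAs come from a pair of paralogous gene clusters, and the array measured 5 mature products of them: mmu-miR-23a and mmu-miR-27a from the a cluster, mmu-miR-23b and mmu-miR-27b from the b cluster, and mmu-miR-24, which both clusters encode. They were taken by exact name among the 650 microRNAs on the array, of which 611 are from mouse, and all 5 were found. Earlier results of these data were known when the members were chosen. The cells were mouse embryonic fibroblasts of the C57BL/6 background, either XBP1WT or XBP1KO. They were left untreated or were grown for 12 h or 24 h in 2 ug/mL tunicamycin, which gives 6 groups of 2 arrays, 12 in all. Here XBP1WT is called wild type and XBP1KO knockout. The labels used here do not say how the knockout was made or whether each genotype is 1 cell line. The design text states that each time point was run as 2 independent experiments. In limma's fit the p-values rest on the spread between the 2 samples of a group, pooled over all 6 groups. A gap in 1 group thus changes the p-values of others, and the number of arrays limits every value below.

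The transcription factor XBP1 acts in the unfolded protein response once IRE1, a sensor in the membrane of the endoplasmic reticulum, has spliced its mRNA. The drug tunicamycin inhibits N-linked glycosylation and so leads to misfolded protein in that compartment. A microRNA is cut from a hairpin precursor and guides repression of mRNAs that pair with its seed, the bases 2 to 8 from its 5′ end. Hairpins of 1 cluster can be made from a common primary transcript, and paralogs with the same seed, as miR-23a and miR-23b or miR-27a and miR-27b, can share targets. The miR-23/27/24 family is known for roles in the growth, differentiation and survival of cells, and miR-27 for roles in lipid metabolism and adipocyte differentiation.

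The mature sequences are shown because they set what the array can tell apart. They are from RefSeq on GRCm38.p6, written 5′ to 3′, with the seed in capitals.
mmu-miR-23a: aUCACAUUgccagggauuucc
mmu-miR-27a: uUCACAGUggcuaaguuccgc
mmu-miR-27b: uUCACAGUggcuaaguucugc
mmu-miR-24: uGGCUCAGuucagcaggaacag
Counting from 1 at the 5′ end, miR-27a and miR-27b differ by 1 substitution, C19U, and agree at 20 of 21 bases, with the same seed. The seeds of miR-23a and miR-27a differ by 1 substitution, U7G. In the RefSeq table the seed of miR-27a is shared by 1 other name, miR-27b, and that of miR-24 by 4 others. For mmu-miR-23b only the name is given here.

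The a cluster lies on the plus strand of chromosome 8. Its hairpins Mir23a, Mir27a and Mir24-2 span 404 bases, chr8:84208518-84208921, and no gene of the RefSeq table spans all of them. The mature miR-23a is at chr8:84208563-84208583 and the mature miR-27a at chr8:84208727-84208747. The b cluster lies on the plus strand of chromosome 13. Its hairpins Mir23b, Mir27b and Mir24-1 span 792 bases, chr13:63300484-63301275, within the protein-coding gene Aopep, and the mature miR-27b is at chr13:63300760-63300780. The hairpins of miR-24 are printed to show why its signal cannot be assigned to a cluster, with the mature stretch in capitals.
Mir24-2, a cluster: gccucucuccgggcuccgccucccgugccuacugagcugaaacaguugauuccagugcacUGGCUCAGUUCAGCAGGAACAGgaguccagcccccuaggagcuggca
Mir24-1, b cluster: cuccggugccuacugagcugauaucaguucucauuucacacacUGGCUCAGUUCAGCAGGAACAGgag
The 22 mature bases are identical in the hairpins, at chr8:84208875-84208896 and chr13:63301251-63301272. The array's single miR-24 value therefore holds the product of both clusters, while the a and b forms of miR-23 and of miR-27 have probes of their own.

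All 5 microRNAs were called detected by the scanner software on all 12 arrays. Each was read by 2 probes, with 7 to 10 usable spots per probe and array. Signals are spot intensities, summed over a microRNA's probes and scaled so that the 75th percentile over the 95 mouse microRNAs detected on every array was equal. The total unscaled mouse signal ran from 94809 to 185591 on the untreated arrays and from 14076 to 78153 on the tunicamycin arrays, so every difference below is relative to the array's other microRNAs. In bulk RNA, fewer cells of a type and less RNA per cell cannot be told apart. All untreated arrays were on 1 slide and all tunicamycin arrays on the other, and the effects of slide and of treatment therefore cannot be told apart. The arrays were read in 4 scans, each with both genotypes, and differences between genotypes or between 12 h and 24 h can be read within a scan. The array does not measure Xbp1 mRNA, so the genotype labels could not be checked. Of 9 fibroblast and mesenchymal microRNAs listed as markers, 6 were detected on all arrays, and none of 7 epithelial and none of 5 blood cell markers was detected on any. The summed scaled signal of the fibroblast list was 15271 to 16293 in untreated, 10254 to 10929 in 12 h and 10953 to 15626 in 24 h wild type, and 21029 to 21702, 9655 to 11953 and 15965 to 16481 in knockout, so it was lower at 12 h in both genotypes. Of 4 muscle markers only miR-206 was detected, on the 12 h and untreated knockout arrays. It was high at 12 h, with 26.4 and 83.5 on the wild type arrays and 62.7 and 47.2 on the knockout arrays, against 1.53 to 8.03 on the other 8 arrays. Of 3 neural markers, miR-9 and miR-9* were detected in untreated knockout, where the list summed to 35.5 and 38.8, and miR-9* on the first knockout 24 h array, while the list was at 0 on all wild type arrays. Of 2 endothelial markers, miR-126-3p was detected only on the second knockout 24 h array, at 17.0. The part of these cells or microRNAs in the results below was not tested.

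The pair of knockout arrays at 24 h differed from each other. Of the 95 microRNAs, 24 differed by over 2-fold between them, against 0 to 8 in the other 5 groups, and their correlation across microRNAs was 0.877, against 0.960 to 0.995. Scaled miR-23b was 152 on the first and 504 on the second, and miR-27b was 52.5 and 139. The second array was thus 3.31-fold higher in miR-23b and 2.64-fold higher in miR-27b, which placed them 7th and 14th of 95 by the size of the difference. In miR-23a, miR-27a and miR-24 the second array differed from the first by -0.26, -0.37 and 0.17 on the log2 scale. The b cluster pair is therefore far apart where the other members are close. With 2 arrays the data do not say which of them is closer to the condition, and results that rest on them are given without each.

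**Figure D1:**
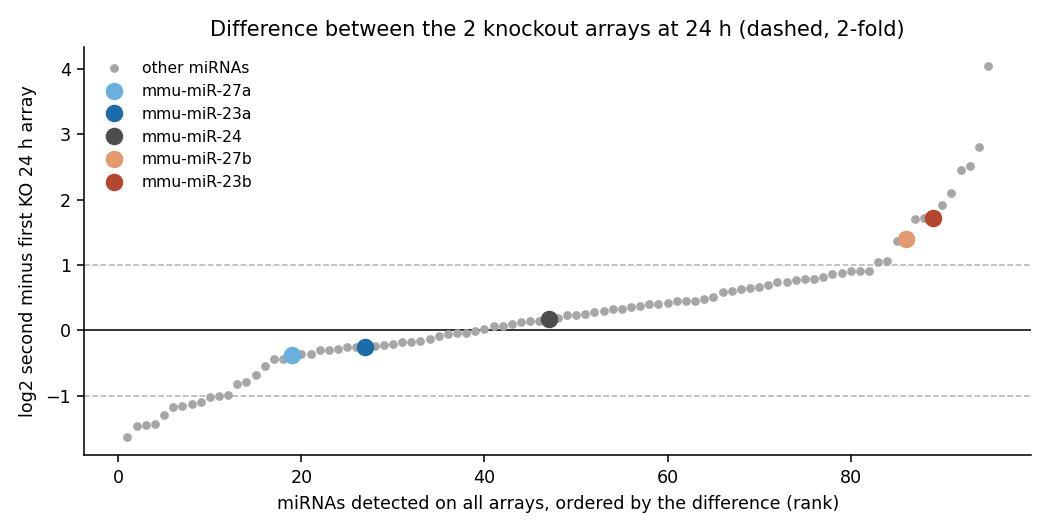
The log2 difference between the second and the first knockout array at 24 h, for the 95 mouse microRNAs detected on all arrays in order of that difference, with members coloured and dashed lines at 2-fold. Among the members, miR-23b (1.73) and miR-27b (1.40) lie above the upper line, and the other 3 lie between -0.37 and 0.17.

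After 12 h of tunicamycin the scaled signals of the b cluster microRNAs were at their lowest in knockout cells. Those of the a cluster microRNAs were not lower there than in untreated knockout cells. Unscaled, both a members were lower there. miR-23a had 615 and 1099 against 2117 and 2312 untreated, and miR-27a had 628 and 1049 against 2040 and 2182. In limma's fit miR-27b fell 2.47-fold in knockout at 12 h, and miR-23b, with a difference of nearly the same size, did not pass the threshold when all arrays were used. In wild type at 12 h only miR-24 passed, 1.38-fold lower, and at 24 h no member passed. In knockout at 24 h miR-23a rose 1.72-fold and miR-24 rose 1.43-fold relative to the array's other microRNAs, while their unscaled signals were lower than in untreated cells (-1.33 and -1.61 on the log2 scale). The ratio of the b to the a paralog fell at 12 h in knockout for both miR-23 and miR-27, and the difference of that response from wild type depended on how the disagreeing 24 h knockout arrays were treated.

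The scaled signal of miR-23a in wild type was 535 and 558 untreated, 550 and 457 at 12 h, and 773 and 622 at 24 h. The knockout values were 549 and 591 untreated, 862 and 630 at 12 h, and 1075 and 898 at 24 h. The untreated groups overlapped, wild type at 12 h overlapped untreated wild type, and both knockout 24 h arrays lay above every other array. In order of the mean, wild type at 12 h was lowest, then the untreated groups, wild type at 24 h, knockout at 12 h and knockout at 24 h. Neighbours in this order overlapped except untreated knockout against wild type at 24 h, and knockout at 12 h against knockout at 24 h.

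miR-27a, encoded beside miR-23a, followed the same order. Its scaled signal was 510 and 520 in untreated wild type, 435 and 386 at 12 h, and 643 and 503 at 24 h. In knockout it was 529 and 558 untreated, 879 and 602 at 12 h, and 979 and 757 at 24 h. The knockout arrays at 12 h and 24 h overlapped each other, and both lay above the untreated arrays. The wild type arrays at 12 h were the lowest of the 12.

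The b cluster members ran in another order. Scaled miR-23b was 224 and 230 in untreated wild type, 193 and 159 at 12 h, and 252 and 225 at 24 h. In knockout it was 270 and 277 untreated, 126 and 93.9 at 12 h, and 152 and 504 at 24 h. Knockout at 12 h was the lowest group and did not overlap the next, wild type at 12 h. Knockout at 24 h held the third lowest and the highest of the 12 values.

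miR-27b, encoded beside miR-23b, was 80.6 and 85.6 in untreated wild type, 52.7 and 50.1 at 12 h, and 63.7 and 69.5 at 24 h. In knockout it was 97.8 and 111 untreated, 46.3 and 38.6 at 12 h, and 52.5 and 139 at 24 h. Knockout at 12 h was again the lowest group, followed without overlap by wild type at 12 h, wild type at 24 h and untreated wild type. The untreated knockout arrays were above the untreated wild type arrays in both b cluster members.

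miR-24, the product of both clusters, had the smallest SE of the 5 members in limma's fit. Its scaled signal was 391 and 399 in untreated wild type, 281 and 292 at 12 h, and 388 and 363 at 24 h. The knockout values were 376 and 396 untreated, 393 and 341 at 12 h, and 519 and 585 at 24 h. The lowest group was wild type at 12 h and the highest knockout at 24 h, neither overlapping its neighbour, and the 4 groups between them overlapped in sequence.

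**Figure D2:**
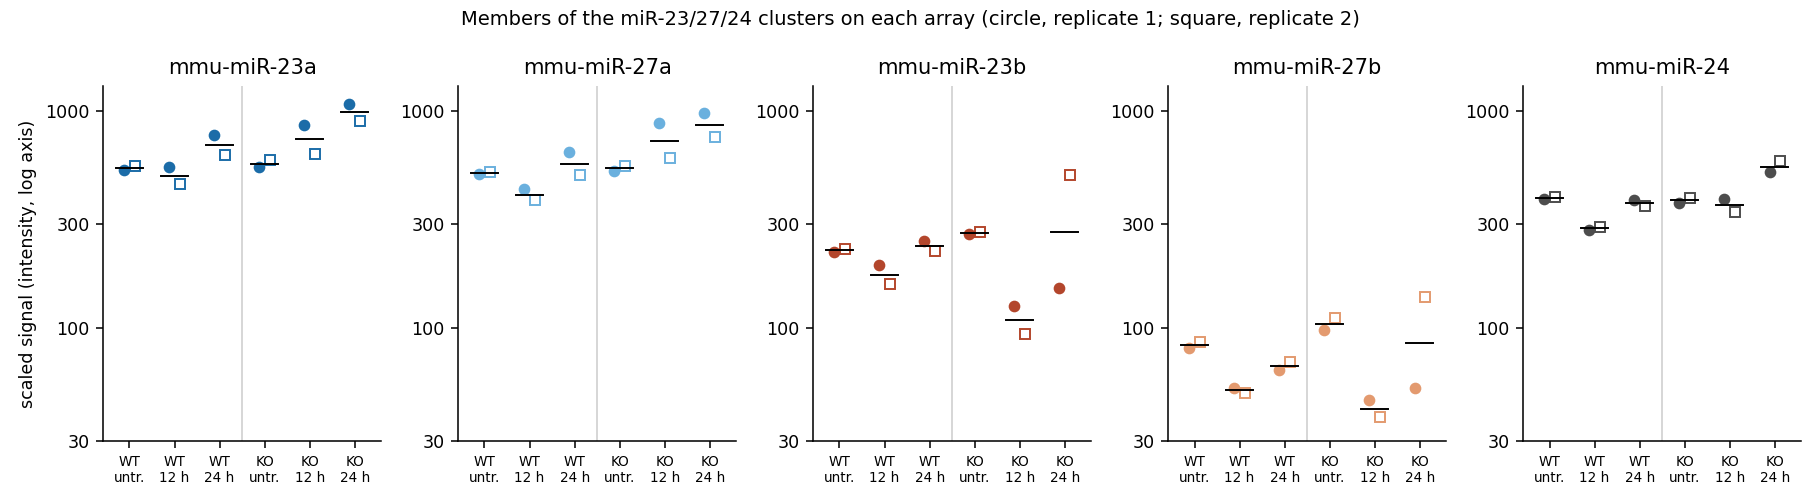
Scaled signal (intensity, log axis) of each member on each array, by genotype and condition, with a bar at the geometric mean of each group of 2. miR-23a and miR-27a share a profile that is highest in knockout at 24 h, miR-23b and miR-27b share another that is lowest in knockout at 12 h, and the knockout 24 h arrays of the b members are 152 and 504 for miR-23b and 52.5 and 139 for miR-27b.

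The response to 12 h of tunicamycin in wild type was 1 called member of 5, against 50.8% of the 256 tested mouse microRNAs called in either direction and 25.4% called lower. Called means an adjusted p under 0.05 in limma's fit to all 12 arrays, with p-values adjusted over all 256. miR-24 was lower by -0.46 on the log2 scale (SE 0.09, limma adjusted p = 0.00602), and the call was lost with normexp (-0.31, limma adjusted p = 0.195). The other 4 members had differences between -0.12 for miR-23a and -0.69 for miR-27b, with SE of 0.19 to 0.49. The median of the 5 members was -0.37, that of the 256 tested was -0.09 and that of the 95 detected on all arrays was -0.42, so the members sat near the middle of the well-detected microRNAs. Under quantile normalization all 5 members were called lower, and the split of all called microRNAs went from 65 higher and 65 lower to 52 and 113. It was 59 and 85 with scaling on all mouse microRNAs, 37 and 139 without scaling and 181 and 11 with normexp background correction.

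At 24 h in wild type none of the 5 members was called by limma at the threshold, against 17.6% of the tested microRNAs. Unadjusted, 77 of the 256 had a p under 0.05. The members' log2 differences ran from -0.32 for miR-27b to 0.34 for miR-23a. The value for miR-24 was -0.07 (SE 0.09), with both 24 h arrays just below the untreated ones. Between 12 h and 24 h in wild type miR-24 rose by 0.39 on the log2 scale (SE 0.09, limma adjusted p = 0.0242), 1.31-fold, in a comparison where 21.9% of the tested microRNAs were called and 3.12% were called higher. The rise was 0.46 within the first tunicamycin scan and 0.31 within the second. Without scaling the value was -0.21, and the call was lost with normexp (0.24, limma adjusted p = 0.998), the software's totals (0.19, 0.163), the deposited values (0.19, 0.195), only microRNAs detected on all arrays (0.135), no filter (0.0523) and the dimmer probe alone (0.0541). It no longer passed with the scan as a fixed block (limma adjusted p = 0.0609), nor when either untreated wild type array, either wild type 12 h array, the first wild type 24 h array or the second untreated knockout array was left out (limma adjusted p of 0.0508 to 0.104).

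In knockout at 12 h, 1 of 5 members was called, against 49.2% of the tested microRNAs in either direction and 25.4% called lower. miR-27b fell by 1.30 on the log2 scale (SE 0.40, limma adjusted p = 0.0311). miR-23b had a difference of -1.33 (SE 0.49, limma adjusted p = 0.0576), 2.51-fold lower. The a cluster members had positive differences, 0.37 for miR-23a (SE 0.19) and 0.42 for miR-27a (SE 0.21), each with a limma adjusted p of 0.143, and miR-24 had -0.08 (SE 0.09). The median of the 95 well-detected microRNAs was -0.44 here, so the b members lay below it and the other 3 above it. Of all called microRNAs 61 were higher and 65 lower, against 58 and 115 under quantile normalization, 56 and 100 with scaling on all mouse microRNAs, 39 and 157 without scaling and 164 and 19 with normexp. The positive sign of the a members held with the main scaling and with quantile normalization but turned to -0.46 and -0.41 when arrays were scaled on all mouse microRNAs and to -1.43 and -1.38 without scaling. The lower sign of the b members held under each of these and under normexp, where miR-27b had -0.09 (limma adjusted p = 0.8) and miR-23b -0.71 (limma adjusted p = 0.0147). The miR-27b call was lost when any 1 of the untreated arrays or of the knockout 12 h arrays was left out, at limma adjusted p of 0.0546 to 0.141, and also without a filter (0.0757) and with the dimmer probe alone (0.0841).

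The knockout 24 h arrays do not enter the 12 h means, but the gap between them sets much of the shared spread. Leaving out either one leaves 1 array in that group and takes this gap out of the spread. Without the second, the SE of miR-23b went from 0.49 to 0.16 and that of miR-27b from 0.40 to 0.12. Both were then called lower in knockout at 12 h, with limma adjusted p of 0.000879 for miR-23b and 0.000369 for miR-27b, where 56.0% of the tested microRNAs were called. Leaving out the first knockout 24 h array instead gave nearly the same values, 0.000928 and 0.00039, where 55.2% were called. In wild type at 12 h without the second array, miR-27b also was called lower (-0.69, SE 0.12, limma adjusted p = 0.00382), beside miR-24, where 57.6% were called. The 12 h differences themselves are the same in all of these fits.

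In knockout at 24 h, 2 of 5 members were called, both higher, against 14.1% of the tested microRNAs in either direction and 3.12% called higher. miR-23a rose by 0.79 on the log2 scale (SE 0.19, limma adjusted p = 0.0324), and miR-24 rose by 0.51 (SE 0.09, limma adjusted p = 0.012). With scaling on all mouse microRNAs neither was called (limma adjusted p of 0.217 and 0.163), and miR-24 also lost its call with quantile normalization (0.0858), with normexp (0.0883) and with only microRNAs detected on all arrays (0.0534). miR-23a lost its call without a filter (0.0858) and with the dimmer probe alone (0.137). Of all called microRNAs 8 were higher and 28 lower, against 4 and 54 under quantile normalization, 1 and 15 with scaling on all mouse microRNAs, 0 and 173 without scaling and 178 and 10 with normexp. miR-27a had 0.66 (SE 0.21, limma adjusted p = 0.103), with both 24 h arrays above both untreated ones. The b members averaged to 0.02 for miR-23b and -0.29 for miR-27b over arrays that disagreed. Between 12 h and 24 h in knockout miR-24 rose by 0.59 (SE 0.09, limma adjusted p = 0.00443), where 39.5% were called and 17.6% called higher, with 0.40 within the first tunicamycin scan and 0.78 within the second, a call that was lost without scaling (0.27, limma adjusted p = 0.936) and with normexp (0.44, limma adjusted p = 0.218).

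The sign of the b members in knockout at 24 h was set by which array was used. With 1 array left in this group, the SE comes from the other groups alone. It leaves out the spread between the 2 knockout 24 h arrays, the group being tested. The knockout 24 h calls below therefore cannot decide the direction, and only the sizes of the differences are to be read. Without the second array miR-23b was called lower (-0.84, SE 0.20, limma adjusted p = 0.0295) and miR-27b was called lower (-0.99, SE 0.15, limma adjusted p = 0.00748), where 22.2% of the tested microRNAs were called. Without the first array miR-23b was called higher (0.88, SE 0.20, limma adjusted p = 0.0214) and miR-27b had 0.41 (SE 0.15, limma adjusted p = 0.0947), where 25.1% were called. miR-24 was called higher in both fits, and miR-23a only without the second array (0.92, limma adjusted p = 0.0334, against 0.66 and 0.0857 without the first). The miR-23a and miR-24 calls at 24 h were also lost when either untreated knockout array was left out, and that of miR-23a without either untreated wild type array or without the first wild type 12 h array.

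**Figure D3:**
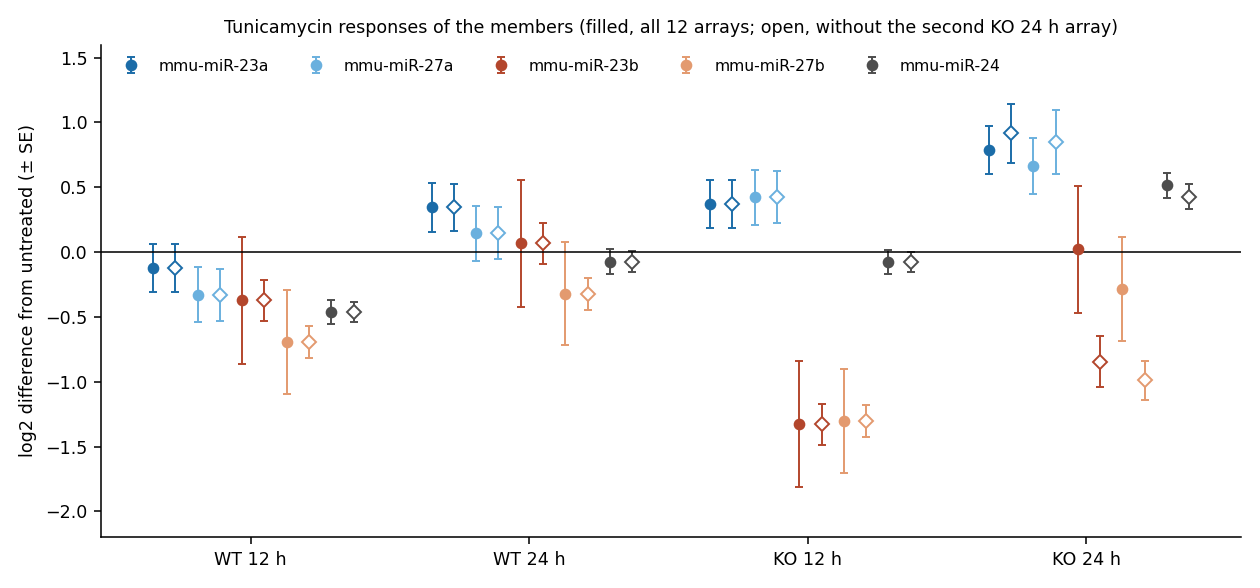
Log2 difference from untreated cells of the same genotype (± SE of limma's fit) for each member, with all 12 arrays (filled) and without the second knockout 24 h array (open). At 12 h in knockout the b members lie near -1.3 in both fits with a smaller SE in the second. At 24 h they move from 0.02 and -0.29 to -0.84 and -0.99. The open knockout 24 h points rest on 1 array, and their SE leaves out the spread of that group.

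The ratio of the paralogs within an array does not change when all signals of the array are multiplied by 1 factor. It was taken as the log2 signal of the b member minus that of the a member, and what is compared is how it differs between groups, since the probes of different microRNAs need not have the same response. For miR-23 it was -1.25 and -1.28 in untreated wild type, -1.51 and -1.52 at 12 h, and -1.62 and -1.47 at 24 h. In knockout it was -1.02 and -1.10 untreated, -2.77 and -2.75 at 12 h, and -2.82 and -0.83 at 24 h. The replicates agreed within 0.16 in every group except knockout at 24 h, where the first array was like the 12 h arrays and the second lay above all other arrays.

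The miR-27 ratio had a like shape, but there neither knockout 24 h array was the lowest or the highest. It was -2.66 and -2.60 in untreated wild type, -3.05 and -2.95 at 12 h, and -3.34 and -2.85 at 24 h. The knockout values were -2.44 and -2.33 untreated, -4.25 and -3.96 at 12 h, and -4.22 and -2.45 at 24 h. The knockout 12 h arrays and the first knockout 24 h array were the 3 lowest for both miR-23 and miR-27, with no overlap with any of the other 9.

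**Figure D4:**
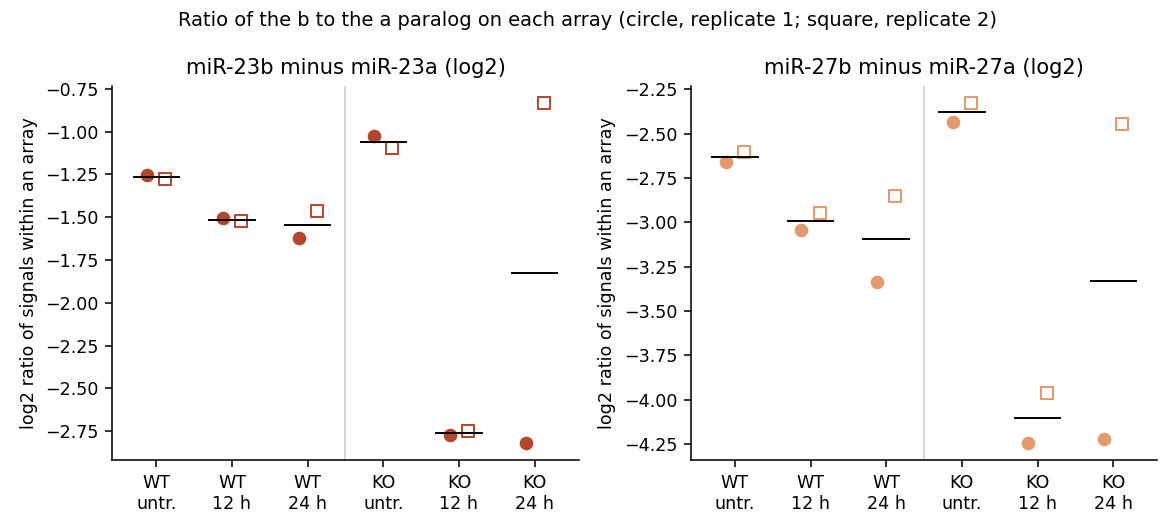
Log2 ratio of the b to the a paralog within each array, for miR-23 (left) and miR-27 (right), by genotype and condition, with a bar at the mean of each group of 2. The knockout 12 h arrays lie at -2.77 and -2.75 for miR-23 and at -4.25 and -3.96 for miR-27, below all wild type arrays. The knockout 24 h arrays lie at both ends for miR-23 (-2.82 and -0.83) and within the range of the others for miR-27 (-4.22 and -2.45).

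The ratios were tested in limma's fit as 4 extra rows beside the tested microRNAs, 260 rows in all, a test chosen after the data were seen. In knockout at 12 h the miR-23 ratio fell by 1.70 (SE 0.55, limma adjusted p = 0.0399) and the miR-27 ratio fell by 1.72 (SE 0.51, limma adjusted p = 0.0295), where 49.2% of the rows were called. In wild type at 12 h the differences were -0.25 and -0.36, neither called, where 50.4% were called. The difference between these responses, wild type minus knockout, was 1.45 for miR-23 (SE 0.77) and 1.36 for miR-27 (SE 0.72), each with a limma adjusted p of 0.548, where 5.38% were called. With all arrays the genotypes were thus not shown to differ in this response. The knockout 12 h call of the miR-27 ratio was lost when either untreated wild type array, either untreated knockout array or either knockout 12 h array was left out, and that of the miR-23 ratio when any 1 of the 10 arrays other than the knockout 24 h arrays was.

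Without the second knockout 24 h array the same 12 h difference between genotypes had an SE of 0.08 for miR-23 and 0.25 for miR-27. It was then called for both, with limma adjusted p of 0.000203 and 0.0211, where 9.96% of the rows were called. Without the first knockout 24 h array instead, it was also called, with limma adjusted p of 0.0002 and 0.0216, where 9.89% were called. The knockout response itself was called in both fits, where 55.9% and 55.5% of the rows were called. When any 1 of the other 10 arrays was left out, neither difference between genotypes was called, with values of 1.42 to 1.49 for miR-23 and 1.22 to 1.50 for miR-27.

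In wild type the miR-23 ratio was also lower with tunicamycin once the second knockout 24 h array was out, by -0.25 at 12 h (SE 0.06, limma adjusted p = 0.0108, 59.4% of rows called) and by -0.28 at 24 h (SE 0.06, limma adjusted p = 0.0168, 30.7% called). The miR-27 ratio had -0.36 and -0.46 there, neither called. The 24 h values that follow rest on 1 knockout array. Their SE leaves out the spread between the 2 arrays of that group, so the calls cannot decide the sign. At 24 h in knockout the first array alone gave -1.76 for miR-23 and -1.84 for miR-27, both called, where 23.4% were called. The difference between genotypes at 24 h was then 1.48 (limma adjusted p = 0.000445) and 1.37 (limma adjusted p = 0.0356), where 9.20% were called. With the second array in place of the first, the 24 h difference had the opposite sign, -0.50 for miR-23 (limma adjusted p = 0.0125) and -0.40 for miR-27 (limma adjusted p = 0.519), where 19.0% were called.

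Set directly against each other within a scan, knockout minus wild type, the miR-23 ratio at 12 h was -1.27 in the first tunicamycin scan and -1.22 in the second. The miR-27 ratio was -1.20 and -1.02. At 24 h the first scan gave -1.20 and -0.88, and the second gave 0.63 and 0.41. The scans thus had like values at 12 h and opposite signs at 24 h. In the fits that follow, knockout at 24 h is 1 array, and the SE leaves out the spread of that group. The 24 h calls there cannot decide the sign. Without the second knockout 24 h array, limma called the genotype difference in both ratios at 12 h (18.4% of rows called) and at 24 h (16.5% called), where it was -1.28 for miR-23 and -1.12 for miR-27. Without the first array instead, both were called at 12 h (18.3% called), and at 24 h the sign was the opposite, 0.71 for miR-23 (limma adjusted p = 0.00086) and 0.65 for miR-27 (limma adjusted p = 0.0901), where 24.7% were called.

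An exact two-sided permutation test over arrays pooled both tunicamycin times within genotype, and a second one compared genotypes within conditions. None of the 8 tests on 4 ratios passed after adjustment. The miR-27 ratio was lower with tunicamycin by -0.88 (exact permutation p = 0.0133, adjusted 0.0741) and the miR-23 ratio by -0.75 (exact permutation p = 0.0756, adjusted 0.101). The smallest p these tests can give is 0.00444 for tunicamycin and 0.00926 for genotype. Without the second knockout 24 h array the tunicamycin differences were -0.99 for miR-23 and -1.09 for miR-27. Without the first array they were -0.66 for miR-23 and -0.79 for miR-27. With 1 array left out the test has fewer arrangements, so its smallest possible p is larger than with all arrays. These values are therefore read as sizes only. With normexp background correction the sign of the miR-27 ratio turned to 0.22.

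The ratios of partners within a cluster were also fitted. Among the 11 comparisons with all arrays, the miR-27a minus miR-23a value was called only in wild type at 12 h against untreated and in knockout against wild type at 12 h. In wild type it was -0.20 (SE 0.06, limma adjusted p = 0.0231), where 50.4% of rows were called. Between the genotypes it was 0.27 (SE 0.06, limma adjusted p = 0.0382), where 6.92% of rows were called. The miR-27b minus miR-23b value was called in none of the 11 comparisons, with differences between -0.39 and 0.41. In wild type it was -0.32 at 12 h and -0.39 at 24 h, of the size of the paralog ratios there. Whether ratios within a cluster differed less than those between clusters was not tested. Across the 12 arrays the scaled log2 signals of miR-23a and miR-27a had a Pearson r of 0.956, and those of miR-23b and miR-27b 0.931. The a and b forms of miR-23 had 0.04 and those of miR-27 had -0.03. miR-24 had 0.77 with each a member, 0.48 with miR-23b and 0.53 with miR-27b. These are descriptions over arrays that share groups, slides and scaling. Without the second knockout 24 h array the values were -0.31 and -0.25 for the a and b forms of miR-23 and miR-27, and 0.11 and 0.26 for miR-24 with miR-23b and miR-27b. Without the first array they were 0.23, 0.12, 0.67 and 0.72, while the pairs within a cluster had 0.898 to 0.956 in both cases.

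Between untreated knockout and untreated wild type no member was called by limma, against 12.5% of the tested microRNAs, and 54 of the 256 had an unadjusted p under 0.05. The differences were 0.06 and 0.08 in the a members, 0.27 and 0.33 in the b members and -0.03 in miR-24. The b differences were alike in the untreated scans, 0.27 and 0.27 for miR-23b and 0.28 and 0.38 for miR-27b. The b to a ratio was higher in untreated knockout by 0.21 for miR-23 and 0.25 for miR-27. Neither was called with all arrays, where 13.1% of rows were called. Within the untreated scans the gap was 0.23 and 0.18 for miR-23 and 0.22 and 0.28 for miR-27. The differences of the ratio responses between genotypes include this untreated gap.

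At 12 h, knockout against wild type, no member was called by limma with all arrays and no block, against 5.08% of the tested microRNAs, and 41 had an unadjusted p under 0.05. The values were 0.56 for miR-23a, 0.83 for miR-27a (limma adjusted p = 0.077), -0.69 for miR-23b, -0.28 for miR-27b and 0.35 for miR-24 (limma adjusted p = 0.0832). The a members and miR-24 were higher and the b members lower in knockout in both scans. With the scan as a fixed block, which compares the genotypes within a scan, miR-23a and miR-27a were called higher in knockout (limma adjusted p of 0.0236 and 0.0229, 5.47% called). miR-27a alone was called with the scan as a random block (limma adjusted p = 0.035, 8.98% called) and with the replicate number as a block (limma adjusted p = 0.0439, 5.86% called). Without the second knockout 24 h array miR-27a, miR-23b and miR-24 were called, where 15.6% were called, and the same 3 without the first, where 15.4% were.

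At 24 h miR-24 was higher in knockout than in wild type by 0.55 (SE 0.09, limma adjusted p = 0.0135), 1.47-fold, the only member called without a block, where 7.81% of the tested microRNAs were called and 4.69% were called higher. It was higher by 0.42 in the first scan and 0.69 in the second, and the call was lost without the second wild type 24 h array (limma adjusted p = 0.0521), with scaling on all mouse microRNAs (0.0654), without scaling (0.453) and with normexp (0.283), always with the same sign. The a members were higher by 0.50 and 0.60, in both scans, and were called only with the scan as a fixed block (limma adjusted p of 0.0211 and 0.0292, 9.77% called). The b members went opposite ways in the scans, -0.73 and 1.16 for miR-23b and -0.28 and 1.00 for miR-27b. The fits that follow hold 1 knockout 24 h array, and their SE leaves out the spread of that group. Calls of the b members in them cannot decide the sign. Without the first knockout 24 h array both were called higher in knockout, miR-23b by 1.08 (limma adjusted p = 0.00894) and miR-27b by 1.06 (limma adjusted p = 0.00373), where 23.2% were called. Without the second array they had -0.64 and -0.34, neither called, where 14.8% were called.

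The design asks for microRNAs whose tunicamycin response depends on XBP1, which the difference of the responses addresses. No member was called by limma at 12 h, where 5.86% of the tested microRNAs were, nor at 24 h, where 4.69% were, while 37 and 30 of the 256 had an unadjusted p under 0.05. At 12 h the differences, wild type minus knockout, were -0.50 for miR-23a, -0.75 for miR-27a, 0.96 for miR-23b, 0.61 for miR-27b and -0.39 for miR-24. The a members and miR-24 thus had the opposite sign to the b members. Under quantile normalization miR-23a (-1.20, SE 0.23) and miR-27a (-1.59, SE 0.30) were called at 12 h, each with a limma adjusted p of 0.0137, where 22 of the 256 were called. At 24 h miR-24 came nearest to the threshold, at -0.59 (SE 0.13, limma adjusted p = 0.0555), and passed it with the software's own totals (-0.67, limma adjusted p = 0.00666), without the intensity trend (0.0364) and with the scan as a random block (0.043).

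Each response could be read from a member's probes separately. Of 20 pairs of responses, 5 members in 4 tunicamycin comparisons, the brighter and the dimmer probe had the same sign in 18, with a median gap of 0.11 on the log2 scale. In knockout at 12 h the miR-23b probes gave -1.28 and -1.50, and the miR-27b probes -1.32 and -1.24. The dimmer miR-27b probe was dim there, at a scaled 9.43 and 5.96, near the 8.07 set as floor for summed signals. The largest gap was 0.53, for miR-27b in knockout at 24 h, with -0.21 and -0.74. Spots of a probe varied within an array by a median coefficient of variation of 4.89%, over 120 probe and array pairs, with a range of 1.18% to 55.0%. It was 16.1% and 31.3% for the dimmer miR-27b probe on the knockout 12 h arrays.

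**Figure D5:**
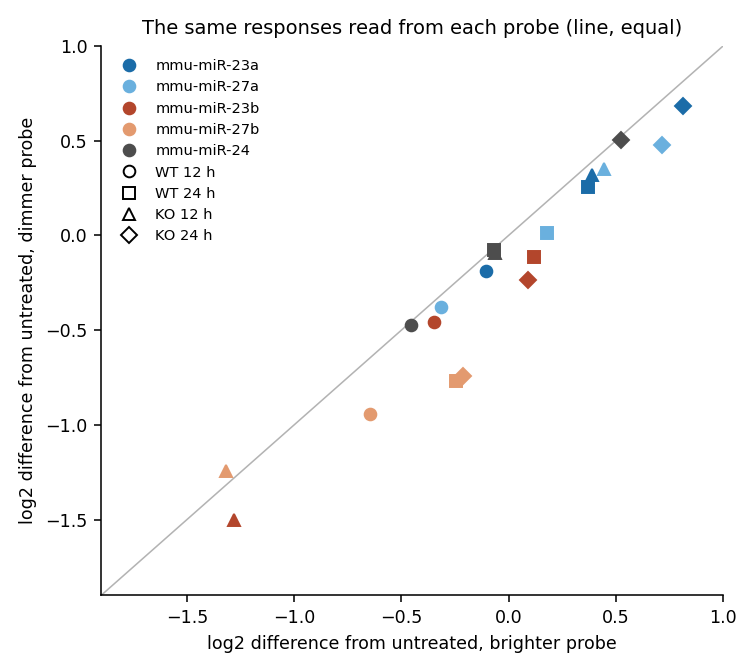
Log2 difference from untreated cells read from the brighter probe (horizontal) and the dimmer probe (vertical) of each member in the 4 tunicamycin comparisons, with a line where they are equal. Most points lie on or below the line, with a median gap of 0.11, and the miR-23b and miR-27b points of knockout at 12 h lie at the lower left on both axes.

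The passenger strands of the miR-24 hairpins differ in sequence between the clusters and so are shown, as the products that could in principle tell them apart.
mmu-miR-24-1* (b cluster): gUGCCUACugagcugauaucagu
mmu-miR-24-2* (a cluster): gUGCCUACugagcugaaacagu
Of 4 such arms on the array, miR-27a* and miR-27b* were detected on none of the 12 arrays. miR-24-1* was detected on 5, the 4 untreated arrays and the second knockout 24 h array. Its scaled signal was 8.80 and 7.88 in untreated wild type, 9.50 and 9.55 in untreated knockout and 18.0 on that knockout 24 h array, against 2.52 to 9.65 on the 7 arrays without a detection call. This is close to the floor of 8.07 set for dim signals. miR-24-2* was detected on the untreated knockout arrays only, at 5.91 and 6.84, below that floor. In scaled signal the b cluster arm was highest on the array where miR-23b and miR-27b also were highest. Unscaled this did not hold. miR-24-1* had 16.6 on that array, against 36.7 and 37.3 in untreated knockout and 18.8 and 19.7 in untreated wild type. Unscaled miR-23b had 465 there, against 1041 and 1081 in untreated knockout.

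Among the 94 other microRNAs detected on all arrays, the 3 most like each member by Pearson r over the 12 arrays came from inside and outside the clusters. For miR-23a they were miR-27a, miR-98 (0.795) and miR-24. For miR-27a they were miR-23a, miR-183 (0.817) and miR-24. For miR-23b they were miR-27b, let-7d (0.921) and miR-301a (0.910). For miR-27b they were miR-16 (0.941), miR-23b and let-7i (0.919). For miR-24 they were miR-15b (0.892), miR-183 (0.886) and miR-29a (0.800). The closest to miR-23a, miR-27a and miR-23b was the partner in the same cluster. No a member was among the 3 closest of a b member, and no b member among those of an a member or of miR-24.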

How the data were processed

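Labelled RNA of 12 samples was hybridised to 1-colour Agilent mouse microRNA arrays and, per the file headers, their images were read by the scanner maker's software, Feature Extraction 10.7.1.1. The deposited scanner files give spot intensity (processed signal, background-subtracted), the software's total intensity per microRNA and detection calls. The authors' deposited series table holds log2 values that equal log2 of the software's totals to within 1.15e-06.

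From the processed intensities of 13000 noncontrol spots on each array, control and outlier spots were dropped, spots were averaged by probe and the probes of a microRNA were summed. Each array was scaled to its 75th percentile over the 95 mouse microRNAs detected on all 12 arrays. Signals under the 5th percentile of scaled detected signals (8.07) were set to it, and log2 was taken. limma 3.58.1 in R 4.3.3 was fitted with 1 mean per group to all 12 arrays (6 residual degrees of freedom, eBayes with an intensity trend). Benjamini-Hochberg adjustment of the p-values ran over the 256 mouse microRNAs tested, in each of 11 comparisons, with a threshold of 0.05. The ratio rows were fitted without the trend. The code was tested on simulated data. Single ratios had exact permutation tests, 8 adjusted together. Alternatives covered scaling, background, summary, filter, variance model, scan, replicate number, probes and each array left out. Normexp used median spot signals, with an offset of 50. Alternatives added after the data were seen are the scan as a fixed block, the fitted ratios and the paired reading without each knockout 24 h array. The named microRNAs are the members, the other arms of their hairpins and the 3 profiles most like each member. Members, lists and tests were chosen with earlier results of these data known. Sequences and positions are from RefSeq (GRCm38.p6).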

Additional observations from a re-analysis of the deposited data

Results flagged for a closer look

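In miR-27a the difference of the 12 h responses, wild type minus knockout, was -0.75 (SE 0.30, limma adjusted p = 0.313). Both wild type arrays at 12 h lay below the untreated wild type arrays and both knockout arrays above the untreated knockout arrays, and limma's test of the difference did not pass. In miR-24 the difference of the 24 h responses was -0.59 (SE 0.13, limma adjusted p = 0.0555), with both wild type arrays below and both knockout arrays above their untreated arrays. Its test did not pass either. Both results were picked from these same data. How many of all tested microRNAs have such a pattern is not given here, so it is not read as particular to the members.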

How the results depend on the processing

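The number of arrays limits all of these values. With 2 arrays a group the shared spread is set in part by single arrays, and slide and treatment cannot be told apart. The cause of each change below was not tested, except that fewer arrays or microRNAs enter some fits. Leaving out 1 array changed the number of members called in wild type and knockout at 12 h and in knockout at 24 h. It also did so for the difference of the 24 h responses, 24 h against 12 h in wild type and knockout, and knockout against wild type at 12 h and 24 h. The number called among all tested microRNAs changed in each of these as well, so the member counts are not read alone. With all arrays the members called were 1, 1, 2, 0, 1, 1, 0 and 1 in this order. Of the tested microRNAs, 50.8%, 49.2%, 14.1%, 4.69%, 21.9%, 39.5%, 5.08% and 7.81% were called there. With 1 array left out, log2 differences ran from -0.26 to 0.0086 for miR-23a in wild type at 12 h, -0.034 to 0.32 for miR-27a and -0.013 to 0.15 for miR-23b in wild type at 24 h, -0.18 to 0.025 for miR-24 in knockout at 12 h and -0.071 to 0.0044 for miR-24 between untreated genotypes. In knockout at 24 h they ran from -0.84 to 0.88 for miR-23b and -0.99 to 0.41 for miR-27b, and for the difference of the 24 h responses from -0.82 to 0.91 and -0.73 to 0.67. The b to a ratio ran from -1.76 to 0.23 for miR-23 in knockout at 24 h, and the difference of its 24 h responses from -0.50 to 1.48 for miR-23 and -0.40 to 1.37 for miR-27. Over both times it ran from -0.99 to -0.66 for miR-23 and -1.09 to -0.79 for miR-27, and miR-27a minus miR-23a between genotypes from 0.11 to 0.15.

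Under quantile normalization 5 members were called in wild type at 12 h, 3 in knockout at 12 h, 1 in knockout at 24 h, 2 for the difference of the 12 h responses, 5 and 4 for 24 h against 12 h in wild type and knockout, and 2 for knockout against wild type at 12 h. Of all 256 tested microRNAs it called 165, 173, 58, 22, 83, 129 and 7 in the same order. miR-27a in wild type at 24 h turned to -0.067 and the miR-23b difference of the 24 h responses to -0.068. Scaling on all mouse microRNAs gave 2, 3 and 0 for the first 3 of these comparisons, 2 and 5 for 24 h against 12 h, and 0 for knockout against wild type at 24 h. Of all 256 it called 144, 156, 16, 93, 139 and 16 in that order. miR-24 in wild type at 24 h turned to 0.067, miR-23a and miR-27a in knockout at 12 h to -0.46 and -0.41, the miR-23b difference of the 24 h responses to -0.033 and miR-24 between untreated genotypes to 0.36. Without scaling all 5 members were called lower in every tunicamycin comparison, where 54.3% to 67.6% of the tested microRNAs were called lower, and 0 for 24 h against 12 h in either genotype and for knockout against wild type at 24 h. Of all 256, 23 and 34 were called for 24 h against 12 h in wild type and knockout without scaling, and 0 for knockout against wild type at 24 h. Signs then turned in wild type at 24 h to -1.80 (miR-23a), -2.002 (miR-27a) and -2.08 (miR-23b), in knockout at 12 h to -1.43 (miR-23a) and -1.38 (miR-27a), in knockout at 24 h to -1.33 (miR-23a), -1.46 (miR-27a), -2.10 (miR-23b) and -1.61 (miR-24), and for miR-24 to -0.21 at 24 h against 12 h in wild type and 0.72 between untreated genotypes. The median of all tested microRNAs in wild type at 12 h was -0.09 in the main setting, -0.74 with quantile, -0.55 with scaling on all mouse microRNAs, -1.36 without scaling and 1.23 with normexp. Normexp gave 0 members in wild type at 12 h, 0 for 24 h against 12 h in wild type, 1 for knockout against wild type at 12 h and 0 at 24 h. Of all 256 it called 192, 23, 5 and 4 in that order. It turned miR-27b to 0.49 and 0.58 in wild type at 12 h and 24 h, 0.40 in knockout at 24 h and 0.18 for the difference of the 24 h responses, miR-27a in wild type at 24 h to -0.016, the ratios with tunicamycin to 0.22 (miR-27b minus miR-27a) and 0.42 (miR-27b minus miR-23b), and the latter between genotypes to -0.14.

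The software's totals and the deposited log2 values gave 1 member in wild type at 24 h, 3 in knockout at 12 h, 1 for the difference of the 24 h responses, 0 for 24 h against 12 h in wild type and 1 for knockout against wild type at 12 h. They gave 2 and 3 for 24 h against 12 h in knockout, and the deposited values 3 for knockout against wild type at 24 h. Of all 256 the totals called 53, 128, 24, 45, 26 and 80 in this order. The deposited values called 48, 91, 17, 27, 23 and 78, and 35 for knockout against wild type at 24 h. Both turned miR-27a (-0.13) and miR-23b (-0.20) in wild type at 24 h, miR-23b in knockout at 24 h (-0.17) and its difference of the 24 h responses (-0.035). In both, exact permutation tests passed for miR-27b minus miR-27a (-1.03, adjusted p = 0.0356) and miR-27b minus miR-23b (-0.40, adjusted p = 0.0494) with tunicamycin and for miR-27a minus miR-23a between genotypes (0.13, adjusted p = 0.0494). With only microRNAs detected on all arrays, 2 members were called in knockout at 12 h, 1 in knockout at 24 h, 0 and 3 for 24 h against 12 h in wild type and knockout, and 1 for knockout against wild type at 12 h. In this order, 48, 15, 12, 57 and 12 of those 95 were called. Without a filter, 0, 1 and 0 were called in knockout at 12 h, knockout at 24 h and 24 h against 12 h in wild type, and the dimmer probe alone gave the same 3 counts, with miR-23b at 24 h turned to -0.11 in wild type and -0.23 in knockout. Of all 611 mouse microRNAs, 101, 23 and 40 were called there without a filter. Without the intensity trend 1 member was called for the difference of the 24 h responses, where 16 of 256 were. With the scan as a random block 1 was called for that difference, where 17 of 256 were, and 1 for knockout against wild type at 12 h, where 23 were. With the scan as a fixed block, an alternative added after seeing the data, 2 and 2 were called for 24 h against 12 h, 2 for knockout against wild type at 12 h and 3 at 24 h. Of all 256, 50, 87, 14 and 25 were called in this order.

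Replicate numbers were not taken to pair the samples: same-numbered arrays deviated together, at r over 0.1, in 7 of 15 pairs of groups (-0.49 to 0.82). The highest values were those between the genotypes in the same condition, 0.82 untreated, 0.63 at 12 h and 0.41 at 24 h. Same-numbered arrays of these pairs shared a scan. The main fit does not use this pairing, while the fits with the scan as a block do. With the replicate block 1 member, miR-27a, was called for knockout against wild type at 12 h, against 0, and no other count or call changed. The tunicamycin ratios with the block stayed at -0.75 for miR-23 and -0.88 for miR-27 (adjusted exact permutation p of 0.158 and 0.0988).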
